A study of Mus musculus with 6 samples.

Results

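The 9 genes described here, Shh, Olig1, Runx2, Tnc, Megf10, Mcam, Igfbp2, Sox2 and Ngfr, are known from repair Schwann cells and were taken by symbol from the 36793 genes of the deposited table. All 9 were in the table, and 8 of them were among the 16809 genes that passed a filter on low counts. Olig1 did not pass it. The libraries are bulk RNA from lumbar dorsal root ganglia of 6 mice, which hold the cell bodies of sensory neurons with their glia. Of these, 3 are wild type (mice 1 to 3) and 3 are labelled NMDA-R Knockout (mice 4 to 6). The series title places the deletion of the GluN1 subunit of the NMDA receptor, a glutamate-gated cation channel, in Schwann cells. The sources used here do not give the promoter that drove the deletion, the strain, sex or age of the mice, or whether ganglia were pooled.

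Schwann cells are the glia of peripheral nerve. After a nerve is cut or crushed they leave the myelinating or Remak (non-myelinating) state and become repair cells, which clear myelin debris, guide regrowing axons and supply trophic factors. The transcription factor c-Jun drives much of this change, and Shh and Olig1 are known to be switched on in it, while Sox2, Ngfr and Tnc are also expressed in immature Schwann cells. Several of these genes are used by other cells of the ganglion too: Ngfr by sensory neurons, Mcam by blood vessels and Tnc by connective tissue. In bulk RNA, fewer cells of a type and less RNA per cell cannot be told apart.

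Total expected counts, the estimated reads per gene summed over a library, ranged from 28526704 to 36249163. Between knockout libraries 5 and 6, 0 of 10258 genes differed at an adjusted p of 0.05 in a chi-square test, whose mean over genes was 1.15. The other 14 pairs had means of 13.2 to 104 and 3382 to 7317 differing genes. Libraries 5 and 6 thus differed by little more than sampling noise and were counted as 1 sample, which leaves 3 wild-type and 2 knockout samples. Grin1, the gene of GluN1, had 68.7, 115 and 75 normalised counts per 1000000 (CPM) in the wild-type libraries and 82.1, 117 and 117 CPM in the knockouts, which does not check the labels, since neurons also express the gene and the title places the deletion in Schwann cells. The labels name Schwann cells as the cell type, but 8 neuronal markers summed to 12235 to 17072 transcripts per 1000000 (TPM) in the 6 libraries, against 1675 to 1925 TPM for 8 markers shared by Schwann cells.

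Tnc had the largest difference between genotypes of the members. Its upstream sequence is shown for that reason, and beside it a short site from each of 2 other members whose groups did not overlap. The sequences are from a table of RefSeq promoters on GRCm38.p6 in which 6 of the 9 members were matched, and are written 5′ to 3′ along each gene. The Tnc stretch covers the 250 bases before its upstream start site (chr4:64047016-64047265, minus strand) and ends where the annotated 5′ exon begins. The Igfbp2 site (chr1:72825338-72825364, plus strand) lies 39 bases before an internal RefSeq start site, and its capitals mark the AP-1 motif TGANTCA, the site bound by c-Jun dimers. The Runx2 site (chr17:44814692-44814717, minus strand) lies 80 bases before a start site that is also internal. The site is thus inside the annotated gene, whose 5′ end is at 44814797. Its capitals mark the RUNX motif TGTGGT read on the opposite strand, which overlaps an E-box. No capitals are set in Tnc.
Tnc: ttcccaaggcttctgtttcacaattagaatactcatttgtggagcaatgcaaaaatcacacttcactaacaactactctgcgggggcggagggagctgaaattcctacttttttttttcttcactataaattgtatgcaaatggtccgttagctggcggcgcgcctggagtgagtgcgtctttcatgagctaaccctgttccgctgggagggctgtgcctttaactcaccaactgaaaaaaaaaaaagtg
Igfbp2: aaacaaaactTGAGTCAgtgaccaccg
Runx2: gaggtcacaaACCACAtgattctgtc

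Both strands of the 300-base promoters, which run to 50 bases past the start, were searched for 6 motifs. A member was counted if any of its windows matched, while the shares of all promoters are per single window. AP-1 was found in Igfbp2 alone of the 6 matched members, and in 7.81% of the 32851 promoters of the table. The RUNX motif TGTGGT was found in Runx2 alone, at 3 places, and in 16.8% of all promoters. The cyclic AMP response element TGACGTCA was found in Mcam alone, and in 1.79% of all. SOX (AACAAT) and GLI (GACCACCCA) motifs were found in 0 of the 6, and in 10.7% and 0.253% of all, while the E-box CANNTG was in 6 of 6 and in 72.3% of all. The 2 Tnc windows held E-boxes and none of the other motifs. These are matches of letters in 1 window per start site and not evidence of binding.

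No member passed the test over all genes. By the edgeR quasi-likelihood test with Benjamini-Hochberg adjustment at 0.05, 0 of 8 members passed, where 0.0952% of all genes tested did (10 genes, or 0.0595%, in the higher direction). DESeq2 called 1 of 8, Tnc, where it called 1.38% of all genes, and limma-voom called 0 of 8, against 0.161% of all genes. At an unadjusted p under 0.05 in edgeR there was 1 of 8, again Tnc, against 9.14% of all genes and 5.15% higher in knockout. The log2 fold change was positive for 7 of 8 members, with a median of 0.30, where 50.2% of all genes were positive and the median was 0.0012. This lean was not particular to the members. Markers shared by Schwann cells were positive in 8 of 8 (median 0.29), myelinating markers in 12 of 12 (0.40) and Remak markers in 5 of 6 (0.33). Marker lists of fibroblasts, perineurium and meninges, and oligodendrocytes had medians of -0.12, -0.11 and -0.14. The groups did not overlap for 3 of 8 members, Tnc, Igfbp2 and Runx2, each higher in knockout, where 11.8% of all genes were separated in that direction and 15.5% in the other. The plot of fold changes by member shows the size and interval of each difference.

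**Figure D1:**
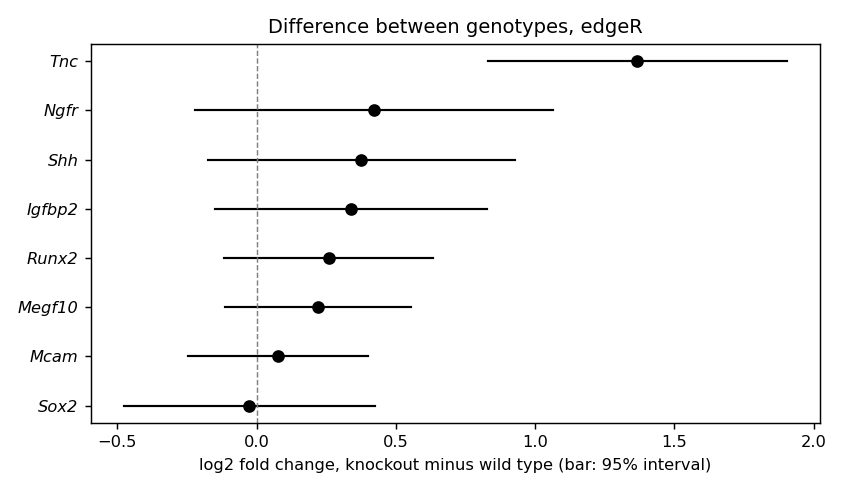
Log2 fold change of knockout against wild type for the 8 members tested (x axis), with the 95% interval of the edgeR fit as a bar. The interval of Tnc runs from 0.83 to 1.90, and each of the other 7 crosses 0.

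Tnc encodes tenascin C, a large matrix glycoprotein that Schwann cells and fibroblasts lay down in injured nerve. Wild-type mice gave 1.89, 2.6 and 2.31 CPM (63, 82 and 67 counts), and knockouts 4, 5 and 6 gave 6.79, 4.69 and 5.28 CPM (198, 162 and 167 counts). Every knockout library was above every wild-type library, and library 4 was the highest. The means were 2.27 ± 0.357 CPM (SD, n = 3) and 5.88 ± 1.28 CPM (SD, n = 2). The fitted difference was 2.58-fold, or 1.37 in log2 units (standard error 0.22, edgeR quasi-likelihood adjusted p = 0.198).

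The Tnc difference did not pass over all genes with 5 samples, but it did in 4 of 15 alternatives. It passed with the 6 libraries counted separately (edgeR adjusted p = 0.0434, where 0.871% of genes passed), in DESeq2 (adjusted p = 0.000459, 1.38%) and with no filter on low counts (edgeR adjusted p = 0.0169, 0.323%). It also passed with GC correction on 6 libraries (edgeR adjusted p = 0.0279, 2.46%). Both settings with 6 libraries enter libraries 5 and 6 as 2 mice, though these differed by little more than sampling noise. With 1 sample left out the log2 fold change ran from 1.14 without knockout 4 to 1.58 without knockouts 5 and 6, and the edgeR adjusted p from 0.209 to 0.462. Tnc (chromosome 4, 63959785 to 64047015, GRCm38, minus strand) has 4 transcripts of different length in the annotation the submitters used. The 1 gene that overlaps it on the other strand, 8030451A03Rik, had 0 to 1 counts. The length of Tnc, as the mean of its transcripts weighted by their estimated abundance, did not separate the groups. It was 6942, 7002 and 6833 bases in wild type and 7044, 6917 and 6943 bases in knockout.

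**Figure D2:**
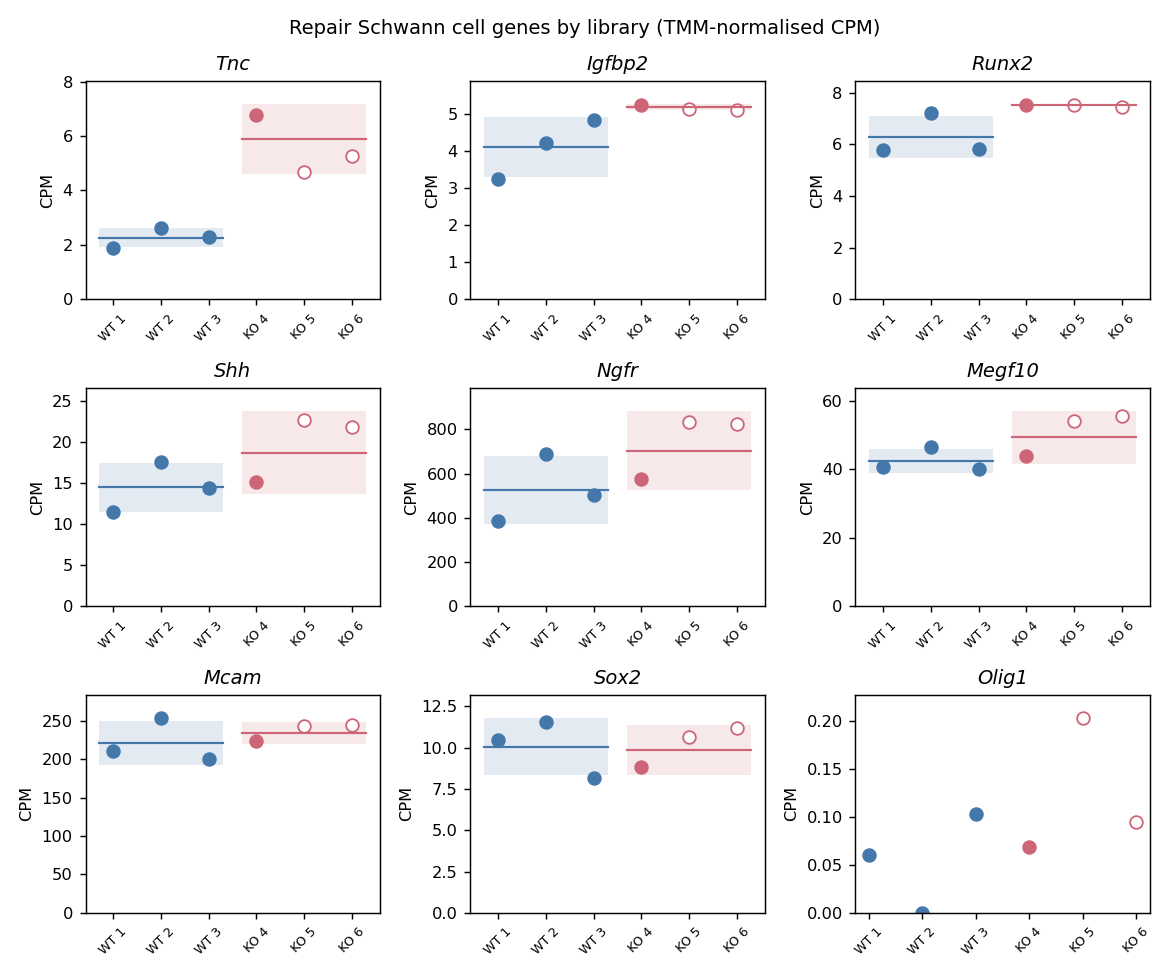
Level of each member in each library (CPM, y axis from 0), with lines at the group mean and bands of 1 SD. Open circles are knockout libraries 5 and 6, which count as 1 sample. Tnc is at 1.89 to 2.6 CPM in wild type and 4.69 to 6.79 CPM in knockout, while Shh, Ngfr, Megf10, Mcam and Sox2 overlap between the groups; Olig1 has no group mean because it was not tested.

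Tenascin C acts through integrins, the receptor phosphatase Ptprz1 and other surface proteins. Of 12 measured genes of the tenascin family and its receptors, 0 passed over all genes in edgeR and 2 in DESeq2 (Itgav and Itgb3), 4 had an unadjusted p under 0.05, 9 were positive and 3 negative, and the median log2 fold change was 0.16. Itgav, the integrin αv subunit, which had the smallest p of the list, had wild-type values of 45.6, 47.4 and 52.8 CPM and knockout values of 72.0, 72.3 and 74.6 CPM. The groups did not overlap, and the log2 fold change was 0.58 (edgeR adjusted p = 0.235). Ptprz1 was at 0.44 and also did not overlap. Itga9, an α subunit that binds tenascin C, was at 0.21, with 0.38 without knockout 4 and -0.0044 without knockouts 5 and 6. Tnr, the tenascin of the central nervous system, was at -0.33, with -0.15 without wild type 3, -0.18 without knockout 4 and -0.51 without knockouts 5 and 6.

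Markers of other cells that make Tnc gave mixed values beside it. Of 7 fibroblast markers 3 were positive and 4 negative with a median of -0.12, and their summed level was 2412 to 3275 TPM in wild type and 2211 to 2977 TPM in knockout, an overlap. In that list 0 passed in edgeR, 2 had an unadjusted p under 0.05, both higher, and DESeq2 called 2 higher in knockout, the collagen genes Col1a1 and Col3a1. Of 8 mural cell markers 5 were positive and 3 negative, and their sum was 154 to 205 TPM in wild type and 128 to 130 TPM in knockout. Members of that list went both ways: 0 passed in edgeR, 2 higher and 1 lower had an unadjusted p under 0.05, and DESeq2 called Cspg4 higher and Rgs5 lower. Markers shared by Schwann cells were positive in 8 of 8, with 0 passing in edgeR or DESeq2, 2 at an unadjusted p under 0.05 and sums of 1675 to 1750 TPM in wild type and 1894 to 1925 TPM in knockout. With library sizes set to the counts of those 8 markers, the log2 fold change of Tnc was 1.15, while the median of all genes moved to -0.21. Which cells held the Tnc RNA was not tested.

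Igfbp2 encodes a secreted binding protein for insulin-like growth factors. It had wild-type values of 3.25, 4.22 and 4.86 CPM and knockout values of 5.25, 5.16 and 5.12 CPM. The knockout libraries lay close together and above all 3 wild-type libraries, of which mouse 3 was nearest. The fitted log2 difference was 0.34 (standard error 0.20, 95% interval -0.15 to 0.83, edgeR adjusted p = 0.644). It was 0.21 without wild type 1, 0.22 after GC correction and 0.13 with library sizes from the Schwann cell markers. That last setting moved the median of all genes to -0.21. The GC content of Igfbp2 transcripts, 58.8%, is above that of 92.5% of the genes tested. Igfbp2 lies on chromosome 1 from 72824503 to 72852474.

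In the insulin-like growth factor axis, 0 of 13 measured genes passed over all genes in edgeR and 2 in DESeq2 (Igfbp3 and Pappa). By sign 11 were positive and 2 negative, with a median of 0.29. In edgeR 3 genes, 2 higher and 1 lower, had an unadjusted p under 0.05, against 9.14% of all genes. The values furthest from 0 belonged to another binding protein and to a protease that cleaves binding proteins. Igfbp3 had wild-type values of 8.02, 9.74 and 12 CPM and knockout values of 18.8, 24.9 and 25.3 CPM, a log2 fold change of 1.15 (edgeR adjusted p = 0.225). Pappa, the protease, was at 8.5, 10.7 and 15.2 CPM and 26.8, 31.7 and 31.0 CPM, a log2 fold change of 1.35 (edgeR adjusted p = 0.221). Neither overlapped between the groups, and both passed in 4 of the alternatives. These include both settings with 6 libraries, in which libraries 5 and 6 enter as 2 mice. The ligands Igf1 and Igf2 were at 0.17 and -0.40, and Igf1 ran from -0.03 without wild type 2 to 0.38 without wild type 3. Igfbp5, with overlapping groups, was at 0.43 and depended on single samples, with 0.00089 without knockouts 5 and 6, 0.29 without wild type 1, 0.74 without wild type 3 and 0.77 without knockout 4.

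Runx2 encodes a Runt-family transcription factor that directs bone formation and is induced in Schwann cells after injury. It had wild-type values of 5.80, 7.24 and 5.82 CPM and knockout values of 7.54, 7.53 and 7.46 CPM. The groups did not overlap, but mouse 2 of the wild type lay only 0.22 CPM below the lowest knockout library. In log2 units the difference was 0.26 (standard error 0.16, 95% interval -0.12 to 0.63, edgeR adjusted p = 0.647). With library sizes from the Schwann cell markers it was 0.05, where the median of all genes was -0.21. On the TPM scale the groups did overlap, at 2.53, 2.95 and 2.27 TPM in wild type and 2.8, 3.06 and 3.27 TPM in knockout. Runx2 has 13 transcripts in the annotation the submitters used. Its weighted length ran from 4992 to 5681 bases across the libraries, the widest spread of the 9 members. Its counts were not whole in 4 of 6 libraries, so reads were shared with other genes. Runx2 (chromosome 17, 44495987 to 44814797) overlaps Supt3 on the other strand, which had 445 to 638 counts. This overlap is of whole gene spans, and overlap of exons was not checked. The sources used here do not give the strand setting of the counting, so whether the 2 genes shared reads is not known.

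Of 9 measured Runx partners and skeletal targets 0 passed over all genes in edgeR or in DESeq2, 2 had an unadjusted p under 0.05, 8 were positive and 1 negative, and the median was 0.30. Cbfb, the common partner of Runx factors, was at 0.15, and at 0.09 without knockouts 5 and 6. Runx3 was at 0.60 and Runx1, which marks subsets of nociceptors, at -0.34, both with overlapping groups. Without knockouts 5 and 6 they were at 0.10 and -0.55, without knockout 4 at 0.95 and -0.15, and without wild type 2 at 0.98 and -0.22. Sp7, the osteoblast factor downstream of Runx2, had 2 to 4 counts per library and was not tested. The bone matrix gene Ibsp had wild-type values of 6.37, 6.16 and 5.06 CPM and knockout values of 8.02, 7.71 and 8.5 CPM, a log2 fold change of 0.46 without overlap (edgeR adjusted p = 0.469). The 8 bone and cartilage markers, a list that shares genes such as Sp7 and Bglap with the one above, summed to 14.4 to 17.7 TPM in wild type. In knockout they summed to 20.5 to 23.3 TPM. Of the 6 measured in edgeR 0 passed and 2 had an unadjusted p under 0.05, and DESeq2 called 0. The part of these markers in the Runx2 values was not tested.

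Shh, a secreted ligand whose receptor is Ptch1, had wild-type values of 11.5, 17.5 and 14.4 CPM and knockout values of 15.1, 22.7 and 21.8 CPM. Libraries 5 and 6 were the highest, but library 4 lay below wild type 2. The knockout-to-wild-type difference was 0.38 in log2 units (standard error 0.23, 95% interval -0.18 to 0.93, edgeR adjusted p = 0.649). It rested on libraries 5 and 6: without them it was 0.06, and without knockout 4 it was 0.62. With library sizes from the Schwann cell markers it was 0.17, where the median of all genes was -0.21. Shh lies on chromosome 5 from 28456815 to 28467256. Wild-type ganglia expressed it in all 3 libraries, from 382 to 551 counts. Like Shh, the 8 neuronal markers summed highest in libraries 5 and 6, at 16995 and 17072 TPM. Their sum in wild type 2, 15801 TPM, was above that in knockout 4, 14460 TPM. The part of these markers in the Shh values was not tested.

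Of 14 measured genes of hedgehog signalling, 0 passed over all genes in edgeR or in DESeq2. In edgeR 3 genes, 2 higher and 1 lower, had an unadjusted p under 0.05, against 9.14% of all genes. By sign 12 were positive and 2 negative, and the median was 0.16. Dhh, the hedgehog ligand of Schwann cells, had the smallest p of the list. It had wild-type values of 32.9, 41.1 and 35.0 CPM and knockout values of 49.0, 54.9 and 49.8 CPM, with no overlap and a log2 fold change of 0.48 (edgeR adjusted p = 0.372). Ptch1, both a receptor and a target of the pathway, was at 22.0, 20.3 and 19.97 CPM and 25.6, 30.4 and 30.3 CPM, also with no overlap and a log2 fold change of 0.43 (edgeR adjusted p = 0.38). Gli1, the transcription factor that is itself a target, was at 0.18 with overlapping groups, was 0.44 without wild type 3, and turned to -0.03 without wild type 2 and to -0.02 with GC correction on 6 libraries. Hhip, an inhibitor that binds the ligand and is a target as well, was below the wild type in all 3 knockout libraries, with 0.992, 1.02 and 1.38 CPM against 0.617, 0.695 and 0.569 CPM, a log2 fold change of -0.84 (edgeR adjusted p = 0.489). Smo, the transducer, was at 0.19, with 0.12 without wild type 1 and 0.08 after GC correction. Of the 3 known targets, Ptch1 and Gli1 had positive values and Hhip a negative one.

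Ngfr encodes p75, a receptor of neurotrophins found on immature, Remak and repair Schwann cells and on many sensory neurons. It had wild-type values of 383, 691 and 503 CPM and knockout values of 577, 834 and 826 CPM. The groups overlapped, with wild type 2 above knockout 4, and the libraries within each group were far apart. The means were 526 ± 155 CPM (SD, n = 3) and 703 ± 179 CPM (SD, n = 2). The fitted log2 difference was 0.42 (standard error 0.27, 95% interval -0.22 to 1.06, edgeR adjusted p = 0.660). It was 0.13 without knockouts 5 and 6, 0.26 without wild type 1, 0.66 without knockout 4 and 0.67 without wild type 2. With library sizes from the Schwann cell markers it was 0.21, where the median of all genes was -0.21. After GC correction it was 0.31; the GC content of the transcript, 58.6%, is above that of 91.6% of the genes tested. The 8 neuronal markers had sums of 12235, 15801 and 13482 TPM in wild type and 14460, 16995 and 17072 TPM in knockout, with the same libraries high, and their part in the Ngfr values was not tested. Ngfr lies on chromosome 11 from 95568818 to 95587735.

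Of 12 measured ligands and partners of p75, 0 passed over all genes in edgeR and 2 in DESeq2 (Bdnf and Sorcs2). In edgeR 3 genes, 2 higher and 1 lower, had an unadjusted p under 0.05, against 9.14% of all genes. By sign 10 were positive and 2 negative, with a median of 0.26. Bdnf, a neurotrophin made by neurons and repair Schwann cells, had wild-type values of 32.6, 34.0 and 36.2 CPM and knockout values of 47.1, 54.6 and 52.8 CPM. The groups were apart by more than the spread within either, with a log2 fold change of 0.56 (edgeR adjusted p = 0.253). The neurotrophin receptor Ntrk2 was at 0.09 and the co-receptor Sort1 at 0.39, both with overlapping groups. Without knockout 4 they were at 0.28 and 0.63, and without knockouts 5 and 6 at -0.13 and 0.11; Ntrk2 was at 0.04 without wild type 1.

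Megf10, a transmembrane receptor with EGF-like repeats through which glia engulf debris, had wild-type values of 40.5, 46.4 and 40.0 CPM and knockout values of 43.9, 54.0 and 55.4 CPM. Knockout 4 lay among the wild-type libraries. In log2 units the difference was 0.22 (standard error 0.14, 95% interval -0.11 to 0.56, edgeR adjusted p = 0.658). It was 0.37 without knockout 4, 0.05 without knockouts 5 and 6 and 0.02 with library sizes from the Schwann cell markers. That last setting moved the median of all genes to -0.21. Megf10 lies on chromosome 18 from 57133090 to 57297467. Of 11 measured engulfment receptors, bridging proteins and adaptors 0 passed over all genes in edgeR and 2 in DESeq2 (Abca1 and Axl), 5 had an unadjusted p under 0.05, and 10 were positive and 1 negative, with a median of 0.41. Abca1, a lipid exporter, had the smallest p, at 111, 121 and 145 CPM in wild type and 191, 196 and 192 CPM in knockout (log2 fold change 0.62; edgeR adjusted p = 0.272). Megf11, the closest relative of Megf10, was at -0.0017, and Gulp1, an engulfment adaptor, at 0.06.

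Mcam, an adhesion molecule of the immunoglobulin family also found on endothelium and pericytes, had wild-type values of 211, 254 and 200 CPM and knockout values of 224, 243 and 245 CPM. The highest value was in wild type 2. The knockout-to-wild-type difference was 0.08 in log2 units (standard error 0.13, 95% interval -0.25 to 0.40, edgeR adjusted p = 0.866). Its sign turned to -0.13 with library sizes from the Schwann cell markers, where the median of all genes was -0.21. With GC correction on 6 libraries it was -0.0042. Left-out samples moved it from 0.0095 (without wild type 3) and 0.01 (without knockouts 5 and 6) to 0.14 (without knockout 4) and 0.19 (without wild type 2). The 7 endothelial markers were positive in 7 of 7, with 0 passing in edgeR or DESeq2 and 3 at an unadjusted p under 0.05. Their sums were 54.2 to 59.4 TPM in wild type and 74.1 to 78.8 TPM in knockout. The 8 mural cell markers, 5 positive and 3 negative, summed to 154 to 205 TPM in wild type and 128 to 130 TPM in knockout. The part of either list in the Mcam values was not tested. Lama4, the laminin α4 chain, which Mcam is known to bind, had wild-type values of 48.4, 48.3 and 54.2 CPM and knockout values of 71.6, 66 and 66.9 CPM (log2 fold change 0.46; edgeR adjusted p = 0.306), and the 6 measured Mcam relatives and ligands had a median of 0.21, with 0 passing in edgeR, 1 (Lama4) in DESeq2 and 1 at an unadjusted p under 0.05. Mcam lies on chromosome 9 from 44134469 to 44142727.

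Sox2, a transcription factor that holds Schwann cells in the immature state and restrains myelination, had wild-type values of 10.5, 11.6 and 8.16 CPM and knockout values of 8.81, 10.6 and 11.2 CPM. The groups overlapped throughout. The fitted log2 difference was -0.03 (standard error 0.19, 95% interval -0.48 to 0.42, edgeR adjusted p = 0.973), and its sign depended on the setting. Its relative Sox10, needed throughout the Schwann cell lineage, was at 0.18, with 0.39 without wild type 2, 0.05 without wild type 3 and 0.12 without knockouts 5 and 6. Sox9, with the smallest p of that list, was at 0.73 from 0.698 to 1.83 CPM in wild type and 1.87 to 2.23 CPM in knockout (edgeR adjusted p = 0.609), with 0.44 without wild type 2 and 1.09 without wild type 3. Sox2 lies on chromosome 3 from 34650405 to 34652461, inside the long non-coding gene Sox2ot on the same strand, which was not analysed here.

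Olig1, a basic helix-loop-helix factor of the oligodendrocyte lineage that repair Schwann cells switch on, was close to undetected. Wild-type mice gave 2, 0 and 3 counts and knockout mice 2, 7 and 3 counts, so no difference was detectable at this depth. Its neighbour and relative Olig2 (listed at 0 counts in 4 libraries, and at 2 and 1 in knockouts 5 and 6) and Sox21, at 0 in all 6, were similarly low. Of 8 oligodendrocyte markers, 4 did not pass the filter on low counts, including Mog and Opalin. The other 4 passed it, and the 8 summed to 63.3 to 97.5 TPM in wild type and 71.1 to 92.0 TPM in knockout. Olig1 lies on chromosome 16 from 91269772 to 91271933.

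Compared per transcript length, in TPM averaged over 5 samples, Ngfr was the highest at 379 ± 111 TPM (SD, n = 5) and Mcam next at 181 ± 17.0 TPM. Shh at 13.2 ± 3.41 and Megf10 at 13.0 ± 1.83 TPM did not differ beyond their spread, and neither did Igfbp2 at 8.99 ± 1.80 and Sox2 at 8.97 ± 1.31 TPM. Runx2 followed at 2.74 ± 0.351 TPM, then Tnc at 1.15 ± 0.628 TPM and Olig1 at 0.079 ± 0.058 TPM. The ranges of all other neighbours in this order were separate over the 6 libraries. The largest gaps were between Tnc and Olig1, 14.5-fold, and between Mcam and Shh, 13.7-fold.

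**Figure D3:**
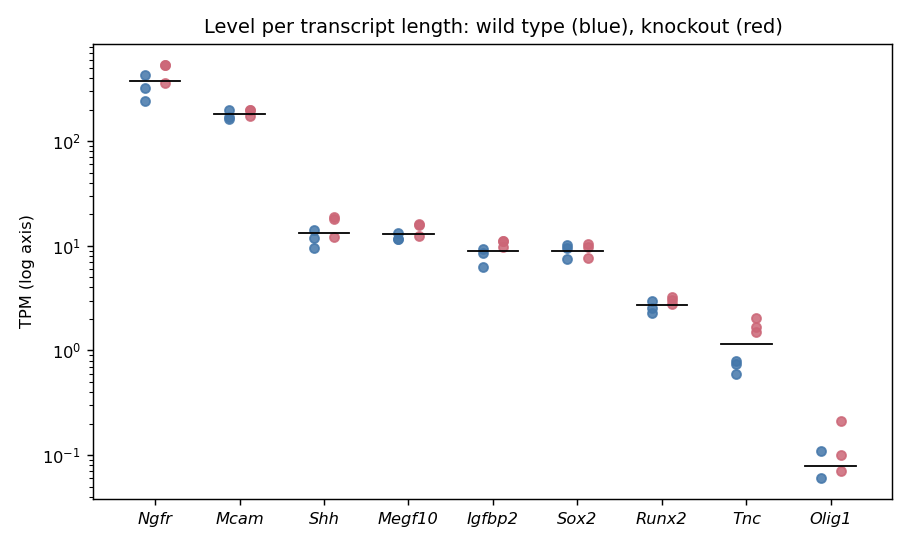
Deposited TPM of each member (y axis, logarithmic) in the wild-type libraries (blue) and knockout libraries (red), with a line at the mean over 5 samples. Ngfr and Mcam stand above 160 TPM in every library and Olig1 at or below 0.21 TPM; the wild-type library with Olig1 at 0 cannot be drawn on this axis.

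Among 18 other measured genes of the injury and repair state, 0 passed over all genes in edgeR. DESeq2 called 3, with Bdnf and Sox11 higher in knockout and Uts2b lower. In edgeR 6 genes, 5 higher and 1 lower, had an unadjusted p under 0.05, against 9.14% of all genes. By sign 16 were positive and 2 negative, and the median was 0.26. Jun, which encodes c-Jun, had wild-type values of 43.8, 79.5 and 50.9 CPM and knockout values of 66.8, 123 and 122 CPM. As for Ngfr and Shh, wild type 2 lay above knockout 4, and the log2 fold change of 0.71 (edgeR adjusted p = 0.574) became 0.20 without knockouts 5 and 6 and 1.08 without knockout 4. The sums of the neuronal markers were high in the same libraries, and their part in the Jun values was not tested. Gfap, an intermediate filament of Remak and repair Schwann cells, was at 3.03, 1.52 and 3.34 CPM and 6.17, 3.65 and 4.2 CPM, without overlap and with a log2 fold change of 0.93 (edgeR adjusted p = 0.523), or 0.58 without knockout 4. Sox11, a factor of injured neurons as well as glia, had the smallest p, at 2.55, 2.86 and 3.06 CPM and 5.52, 6.34 and 6.07 CPM (log2 fold change 1.06; edgeR adjusted p = 0.188). Sox4 was at 0.02 with a sign that depended on the setting. Of the trophic factors of repair cells, Gdnf and Artn were close to undetected, unlike Bdnf: Gdnf had 3 to 9 counts per library and Artn 1 to 6, and neither was tested. The label of the 9 genes refers to repair cells, but with Gdnf, Artn and Olig1 this low, and Shh, Ngfr and Mcam present in every wild-type library, the levels cannot be read as a count of such cells.

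Repair cells shut down the genes of myelinating Schwann cells. Of 12 such markers 12 had positive values here, with a median of 0.40, 0 passed over all genes in edgeR or in DESeq2, 6 had an unadjusted p under 0.05, and their sum was 4848 to 5751 TPM in wild type and 6386 to 6651 TPM in knockout. Markers of Remak cells were positive in 5 of 6 with a median of 0.33, and those of satellite glia, which wrap the neuronal cell bodies, in 7 of 8 with a median of 0.25. In each of these lists 0 passed over all genes in edgeR, 1 in DESeq2 (Chl1 and Kcnj10) and 3 at an unadjusted p under 0.05.

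**Figure D4:**
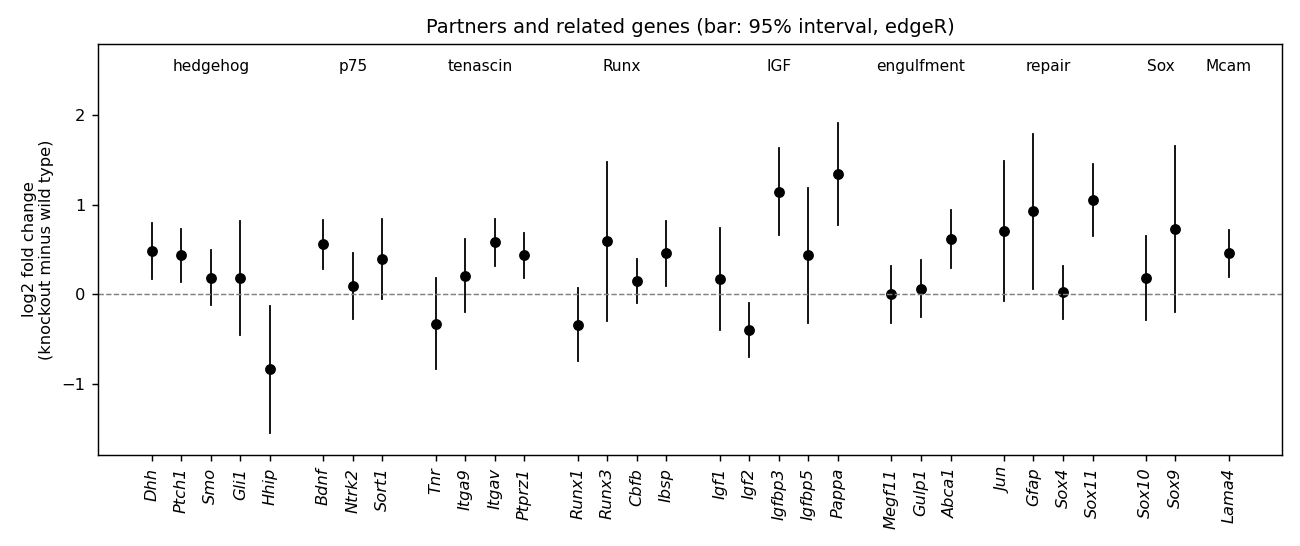
Log2 fold change (y axis) with the 95% interval of the edgeR fit for partners and relatives of the members, by pathway. Pappa at 1.35, Igfbp3 at 1.15 and Sox11 at 1.06 are highest, and Hhip at -0.84 is lowest; none passed over all genes in the comparison of 5 samples.

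Leaving out 1 sample at a time showed how much single animals carried each value. The order of the members held at its top, where Tnc stayed the highest of the 8 in each of the 5 omissions. Ngfr, Shh, Megf10 and Mcam were each lower without knockouts 5 and 6 and higher without knockout 4, as was Sox2. Sox2 was the only member whose sign turned when a sample was left out, from -0.19 to 0.12.

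**Figure D5:**
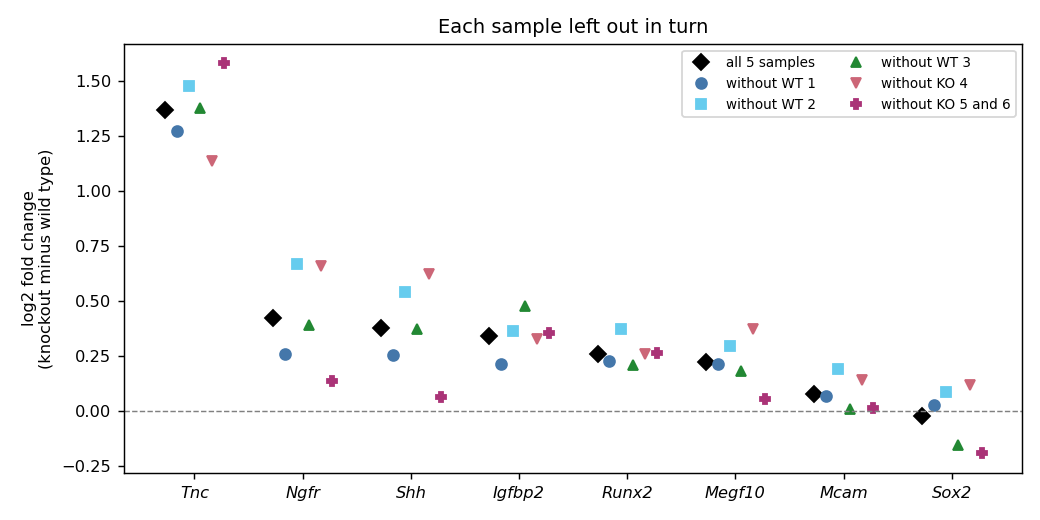
Log2 fold change of each member (y axis) with all 5 samples and with each sample left out. Tnc stays between 1.14 and 1.58, Ngfr runs from 0.13 to 0.67 and Shh from 0.06 to 0.62.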

How the data were processed

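Bulk RNA-seq of dorsal root ganglia from 3 wild-type and 3 knockout mice was used. The tools named are the trimmer Trimmomatic 0.38, the aligner STAR 2.6.0a and the quantifier RSEM 1.3.0, with the build GRCm38, all per the submitters' processing notes. The authors deposited expected counts per gene, which are not normalized, with TPM, FPKM and gene lengths, per the file headers. The deposited FPKM values entered no result. The deposited length of Shh, 2692 bases, differs from 2847 bases in GENCODE vM21; the release used was thus another one, and the sources used here do not name it or the strand setting. Symbols matched 35243 of 36793 identifiers, and positions are from GENCODE vM21.

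Expected counts were rounded, libraries 5 and 6 were summed, and genes were filtered with filterByExpr, scaled by TMM and tested with edgeR 4.0.16 in R 4.3.3 (quasi-likelihood, genotype only, two-sided). Standard errors are the log2 fold change over the root of F. Labels number the mice but do not describe litters or batches, so p-values measure the spread between these samples. Alternatives used DESeq2 1.42.0, limma 3.58.1, log2(TPM + 0.1), other scaling and filters, and omission of samples. The GC correction (lowess of each sample's deviation on transcript GC content) was chosen after seeing the data. The members and lists were chosen with earlier results of these data known. The genes named are the 9 members, partners picked by role, the gene with the smallest p in each pathway list; Uts2b and the genes named beside DESeq2 counts (Itgb3, Sorcs2, Axl, Chl1, Kcnj10, Col1a1, Col3a1, Cspg4, Rgs5) were chosen after their values were seen. A few genes that this rule names are not reported here, though the counts and medians of their lists include them. The fit was also run on simulated counts with known changes. Their spread was set in advance and not taken from these samples, so that run does not check the p-values here.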

Additional observations from a re-analysis of the deposited data

How the results depend on the processing

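No paired analysis was possible because wild-type and knockout mice have no number in common. The count of 16 genes called became 144 with 6 libraries counted separately and 407 with GC correction and 6 libraries, in both of which libraries 5 and 6 enter as 2 mice. It was 246 with DESeq2, 81 with no filter on low counts, 27 with limma-voom and 25 with GC correction, and 7 to 14 with replicates left out (8 without wild type 2, 10 without wild type 3 and 7 without knockout 4); the cause was not tested. The count of members called, 0 of 8, was 1, Tnc, with 6 libraries, DESeq2, no filter, and GC correction with 6 libraries, and 0 to 0 with replicates left out. Sox2, at -0.03, was 0.017 with 6 libraries, 0.13 with limma-voom, 0.0069 with GC correction and 6 libraries, and -0.19 to 0.12 with replicates left out (-0.16 without wild type 3). Mcam turned to -0.13 with library sizes from Schwann cell markers, where the median of all genes was -0.21, and to -0.0042 with GC correction and 6 libraries. Megf11 was 0.011 with DESeq2, 0.016 with no filter and 0.057 with limma-voom, and Sox4 -0.0071 with upper-quartile scaling. Gli1 was -0.023 with GC correction and 6 libraries. With replicates left out the ranges were -0.045 to 0.10 for Megf11, -0.029 to 0.10 for Sox4 (-0.011 without wild type 3), -0.028 to 0.44 for Gli1, -0.025 to 0.38 for Igf1, -0.070 to 0.19 for Gulp1, -0.13 to 0.28 for Ntrk2 and -0.0044 to 0.38 for Itga9. Why these turned was not tested. Among alternatives for members 108 kept direction and side of the threshold, and among those for other named genes 448 did, while 27 gained the call. Leaving out knockout 4, or 5 and 6, left 1 knockout sample, whose variance was taken from the wild type. Depth limits Olig1, Gdnf, Artn, Sp7 and Olig2, with at most 9 counts per library.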

Other observations

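Uts2b, which encodes a urotensin-like peptide and was counted among the other genes of the repair state, had the most negative value of that list. Wild-type mice gave 123, 71 and 296 counts and knockout mice 22, 22 and 14, or 3.70, 2.25 and 10.2 CPM against 0.754, 0.637 and 0.443 CPM. The knockout libraries were all below the lowest wild-type library, but the wild-type libraries themselves lay 4.52-fold apart. On the log2 scale this was -3.08 (standard error 0.72, edgeR quasi-likelihood adjusted p = 0.306). It ran from -3.45 without wild type 2 to -2.23 without wild type 3. Uts2b passed over all genes with DESeq2 (adjusted p = 0.000189) and with no filter on low counts (edgeR adjusted p = 0.0309). It also passed with GC correction on 6 libraries (edgeR adjusted p = 0.0442), where libraries 5 and 6 enter as 2 mice. Uts2b was chosen after its values were seen.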
